A study of Bos taurus with 12 samples.

Results

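Chromaffin cells from bovine adrenal glands, which secrete catecholamines in the adrenal medulla, were compared after human interferon alpha (IFNα, from PeproTech, at 1 nM for 24 h) and after histamine (10 µM for 6 h). Each agent had 3 single-colour Affymetrix arrays, so the comparison used 6 of the 12 arrays of the series and all 24016 probe sets that are not array controls. Of the remaining arrays, 3 held untreated cells, which serve here to place each level, and 3 held cells given IL6 (10 nM for 24 h). The IL6 arrays entered the estimate of the spread and the choice of the brightest probe set of a gene, made over all 12 arrays. The labels name no genetic change in any group. The labels give neither the number of animals nor how long untreated cells were kept. The submitters describe the triplicates as technical, so p-values measure only the spread between arrays and not that between cultures or animals. Agent, dose and treatment time differed together, 24 h against 6 h, and their parts in any difference cannot be told apart. The interferon was the human protein applied to cattle cells, and a single untreated group stands beside both treatment times.

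IFNα is a type I interferon. It binds a receptor made of IFNAR1 and IFNAR2, whose kinases activate transcription factors, STAT2 and IRF9 among them, that turn on genes of the antiviral state, of protein tagging by ISG15 and of antigen presentation on MHC class I. Histamine acts on chromaffin cells through the receptor HRH1, which couples to Gq and phospholipase C and raises cytoplasmic calcium, and it is known there as a stimulus of catecholamine and peptide release. Signals of this kind are followed within a short time by immediate early transcription factors, by feedback regulators that end the signal, and later by genes of the released peptides and of catecholamine synthesis.

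Between the agents, 2280 of the 24016 probe sets were called (9.49%). A call required 1.5-fold or more together with an adjusted p below 0.05. Of these, 1101 were higher after IFNα (4.58% of those tested) and 1179 were higher after histamine (4.91%). A single gene symbol was given for 13292 probe sets, which named 9155 genes, each represented by its brightest probe set; 1089 of these genes were called (11.9%), 534 higher after IFNα (5.83%) and 555 higher after histamine (6.06%). The sides were close in number and unlike in size. At least 2-fold differences were found in 199 genes higher after IFNα and 135 higher after histamine, at least 4-fold in 64 and 15, and at least 16-fold in 18 and 2, the last being TAC1 and VIP. The median difference over all named genes was -0.03 on the log2 scale, which is used for all levels and differences below, always as IFNα minus histamine unless untreated cells are named. The IFNα arrays did not overlap the histamine arrays in 10901 probe sets (45.4%) and in 5012 named genes (54.7%), so lack of overlap by itself was common. Small p-values were common too. With no fold minimum, 8915 of the 24016 probe sets had an adjusted p below 0.05, so counts of small p-values in a list say little alone. Across probe sets, arrays of the same agent correlated at 0.995 to 0.998 and arrays of different agents at 0.972 to 0.975. The lower quartile of each array lay at 5.02 to 5.11, and a fold whose lower group mean was under 5.02 is given as "at least", since the array resolves little there. Array maxima were 14.01 to 14.14, so differences of genes close to that level may be compressed.

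**Figure D1:**
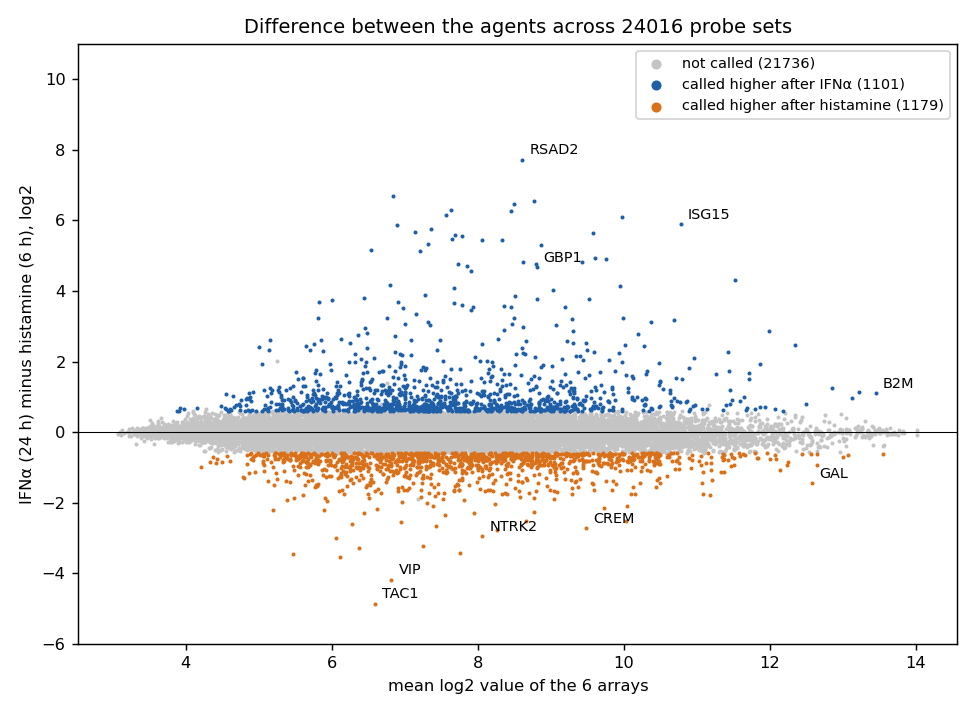
Difference between IFNα (24 h) and histamine (6 h) on the log2 scale (vertical axis) against the mean log2 value of the 6 arrays (horizontal axis), 1 point per probe set; blue points are the 1101 called higher after IFNα, orange points the 1179 called higher after histamine, and grey points were not called. Differences above 5 occur only on the IFNα side, while TAC1 at -4.86 and VIP at -4.18 are the largest named differences on the histamine side.

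Genes induced by interferon formed the high end of the comparison. RSAD2, which encodes viperin, an antiviral enzyme of the endoplasmic reticulum, read 12.53, 12.48 and 12.40 after IFNα and 4.68, 4.75 and 4.82 after histamine. All IFNα arrays were high and all histamine arrays lay in the dim range, with a difference of 7.72 (SE 0.435), at least 211-fold (adjusted p = 3.15e-09). Untreated cells were uneven in this gene, at 7.16, 4.79 and 4.72, the first repeat standing above the others. LOC100298356, an uncharacterised locus, read 12.13, 12.10 and 11.94 after IFNα against 5.57, 5.38 and 5.54 after histamine, a 94.4-fold difference (6.56, SE 0.230). IFI44L, an interferon-induced protein, was 89.1-fold higher after IFNα (11.74, 11.71 and 11.77 against 5.31, 5.25 and 5.23). Its relative IFI44 was at least 78.8-fold higher, and IFI27, an interferon-induced protein of cellular membranes, 68.9-fold. In each of these genes the groups were far apart and repeats within a group differed by less than 0.3.

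The rest of the antiviral effectors behaved alike. Of 48 listed genes 27 had a named probe set, and 26 of the 27 were called higher after IFNα (96.3%, beside 5.83% of all named genes). The median difference was 3.24 beside -0.03 for all named genes. ISG15, the ubiquitin-like protein that interferon-treated cells attach to their own and viral proteins, read 13.72, 13.78 and 13.68 after IFNα against 8.14, 7.63 and 7.73 after histamine. The difference was 5.89 (SE 0.209, 59.4-fold), with the IFNα arrays near the top of the scale. MX1, a dynamin-like GTPase that traps viral nucleocapsids, read 12.18, 12.17 and 12.29 against 7.38, 7.24 and 7.28, a 30.1-fold difference with no overlap. Its relative MX2 was at least 40.2-fold higher after IFNα. The guanylate-binding proteins GBP1 and GBP4, GTPases that attack vacuoles of intracellular microbes, were 25.5-fold and at least 50.9-fold higher. XAF1, a factor that promotes cell death, was at least 47.2-fold higher, and RTP4, a chaperone of membrane receptors, was higher by 4.72 on the log2 scale. IFI6, an interferon-induced membrane protein, read 13.68 to 13.69 after IFNα and 9.33 to 9.40 after histamine, again close to the ceiling. The gene of this list that was not called was APOBEC3Z1, named after its value was seen, of the family of cytidine deaminases, which read under 4.7 on all 6 arrays (-0.19, 95% interval -0.36 to -0.03).

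**Figure D2:**
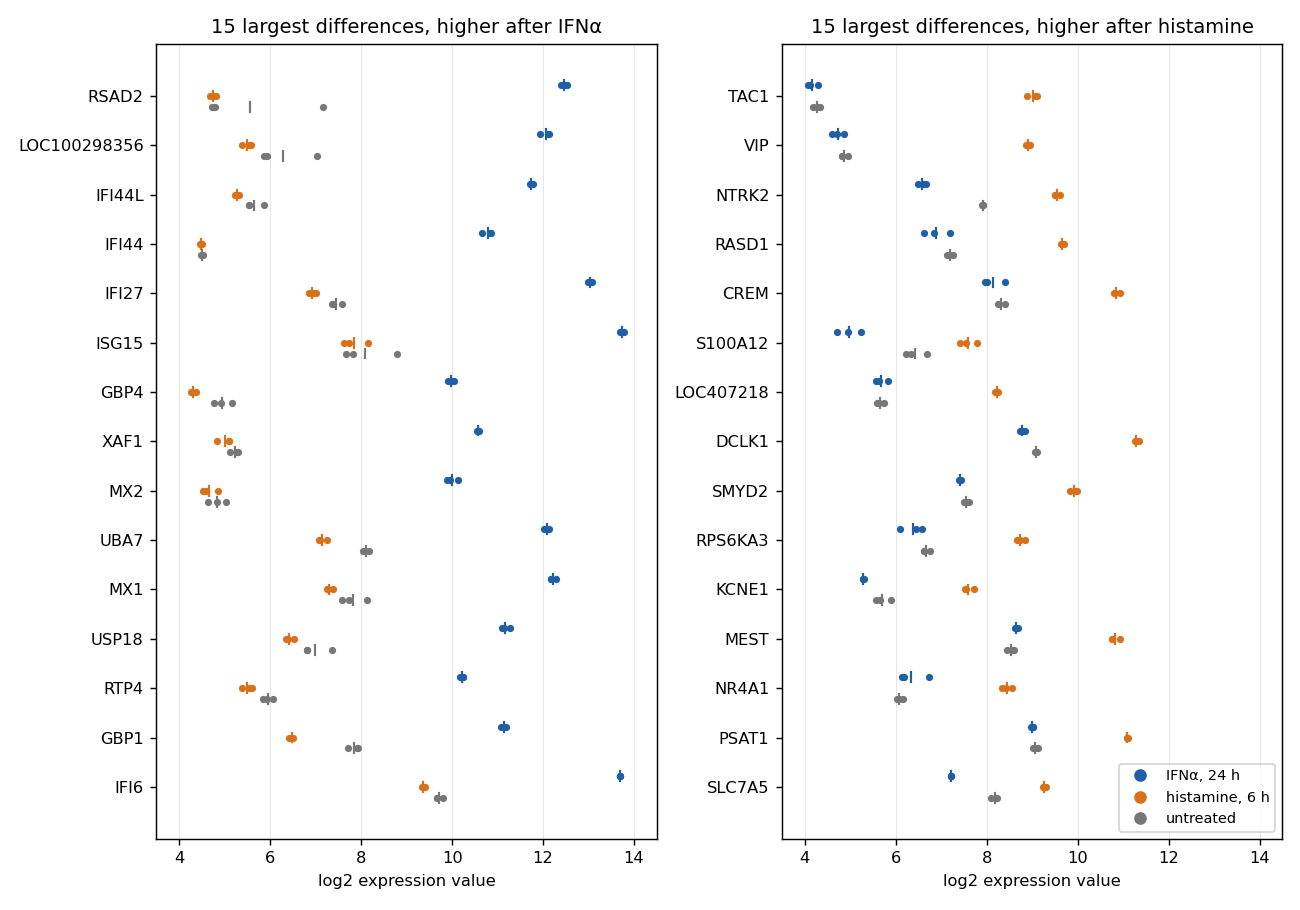
Array values of the 15 named genes with the largest difference in each direction; the horizontal axis is the log2 expression value, each point is 1 array and each vertical tick the mean of 3 arrays, in blue for IFNα (24 h), orange for histamine (6 h) and grey for untreated cells. In the left panel untreated means lie nearer to the histamine than to the IFNα arrays, as in RSAD2 at 4.72 to 7.16, and in the right panel most untreated values sit near the IFNα arrays, as in TAC1 at 4.19 to 4.33, with NTRK2, S100A12 and SLC7A5 between the agents.

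Genes listed for ISG15 tagging and related ubiquitin-like processes were mostly higher after IFNα. The list is wider than ISG15 tagging itself and also holds genes such as DTX3L and PARP9. Of its 11 measured genes 10 were called higher after IFNα (90.9%, beside 5.83% of all named genes), with a median difference of 3.78. UBA7, the enzyme that activates ISG15, read 12.07, 12.14 and 12.03 after IFNα and 7.08, 7.10 and 7.25 after histamine (30.6-fold, adjusted p = 1.83e-16). USP18, which removes ISG15 and also damps signalling at the interferon receptor, was 27.0-fold higher, at 11.10 to 11.27 against 6.34 to 6.52. DTX3L, a ubiquitin ligase, and PARP9, its partner, were 17.7-fold and 13.8-fold higher. HERC5, named after its value was seen as the 1 gene that was not called, read 5.01 to 5.14 after IFNα and 5.05 to 5.20 after histamine (-0.04, 95% interval -0.27 to 0.18), with overlapping arrays near the floor.

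The interferon pathway itself was uneven. Of 17 measured signalling genes, 7 were called higher after IFNα and 1 lower, 47.1% in all beside 11.9% of all named genes. STAT2, a transcription factor activated at the receptor, read 9.24, 9.39 and 9.02 after IFNα against 7.40, 7.43 and 7.46 after histamine (3.45-fold), and IRF9, its DNA-binding partner, read 10.74, 10.77 and 10.71 against 7.74, 7.97 and 7.92 (7.28-fold). IRF7, which amplifies interferon production, was 8.30-fold higher, and IFI35, an interferon-induced leucine zipper protein, 7.89-fold. The receptor chains did not share this. IFNAR1 read under 5.1 on all 6 arrays, with a difference of -0.09 (95% interval -0.29 to 0.11), and IFNAR2 differed by -0.02 (-0.33 to 0.28), with overlapping arrays. The 1 signalling gene that was lower after IFNα, JAK1, the receptor kinase, named after its value was seen, read 11.32 to 11.36 after IFNα and 11.95 to 12.04 after histamine, a 1.56-fold difference that missed the fold minimum after cyclic loess (-0.565).

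Antigen presentation on MHC class I was higher after IFNα in 13 of 16 measured genes (81.2%, beside 5.83% of all named genes), with a median difference of 1.23. TAP1, which carries peptides into the endoplasmic reticulum, read 10.40, 10.50 and 10.39 after IFNα against 6.49, 6.50 and 6.76 after histamine (14.4-fold). PSMB9 and PSMB8, the catalytic subunits that turn the proteasome into the immunoproteasome, were 11.8-fold and 6.57-fold higher, and BOLA, a cattle class I heavy chain, 3.20-fold. B2M, the light chain of class I molecules, read 14.04, 14.04 and 13.93 against 12.90, 12.87 and 12.93, so its 2.15-fold difference was measured at the ceiling. The subunits of the constitutive proteasome did not follow. Of 26 measured, 0 were called higher after IFNα and 2 were called lower, PSMD1 at -0.83 and PSMD6 at -0.59, both regulatory subunits. The share called was 7.69%, beside 11.9% of all named genes, and 21 of the 26 had an unadjusted p under 0.05. PSMD6 differed by only -0.05 when all of its probe sets were averaged, and missed the fold minimum after cyclic loess or quantile normalization and without histamine repeat 1 or 3 (-0.53 to -0.58).

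Smaller groups on the IFNα side were genes of sensing, complement and cell death. The list of sensing of foreign nucleic acid and microbial products had 6 measured genes, sensors and genes that relay their signal. Of these, 33.3% were called, beside 11.9% of all named genes. DHX58, a regulator of RNA sensing, was 13.7-fold higher after IFNα and TLR4, the endotoxin receptor, 1.91-fold. The other 4 genes of the list were not called. Among 22 complement and acute phase genes, 4 were called higher and 1 lower, 22.7% in all beside 11.9% of all named genes. C1R and C1S, the proteases that start the classical pathway, differed by 1.97 and 1.43, C4A, their substrate, by 1.52, and SERPING1, their inhibitor, named after its value was seen, by 1.10. A2M, a broad protease trap, went the other way at 9.88, 9.70 and 9.74 after IFNα against 11.15, 11.10 and 11.17 after histamine (2.58-fold lower). All 5 called cell death genes, of 17 measured, were higher after IFNα (29.4%, beside 5.83% of all named genes). They were CASP4, an inflammatory caspase (3.59-fold), CFLAR, an inhibitor of death receptor signalling (2.35-fold), BIRC3, an inhibitor of apoptosis (2.24-fold), the death receptor FAS (1.74-fold) and, named after its value was seen, the pore-forming BAX (1.57-fold).

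Cytokine genes were called in both directions, 3 of 34 each way, 17.6% in all beside 11.9% of all named genes. TGFB2, a growth-inhibiting cytokine, read 7.33, 7.33 and 7.12 after IFNα against 8.78, 8.89 and 9.15 after histamine (3.20-fold lower), with untreated cells between them at 7.60, 8.22 and 8.18. IL18, a cytokine of the inflammasome, was 3.04-fold lower after IFNα, again on the far side of untreated cells at 6.36 to 6.54. CXCL14, a chemokine, was 2.24-fold lower after IFNα, with IFNα arrays at 4.69, 4.93 and 5.47. CSF1, the macrophage growth factor, was 1.88-fold higher after IFNα, as were, named after their values were seen, the chemokines CCL5 (1.66-fold) and CCL8 (1.70-fold). IL6 missed the fold minimum at 0.55 (95% interval 0.24 to 0.86, adjusted p = 0.00723); it passed it without IFNα repeat 2 at 0.76 and without histamine repeat 2 at 0.61. CXCL8 overlapped between agents, with a difference of -0.22 (-0.58 to 0.13).

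**Figure D3:**
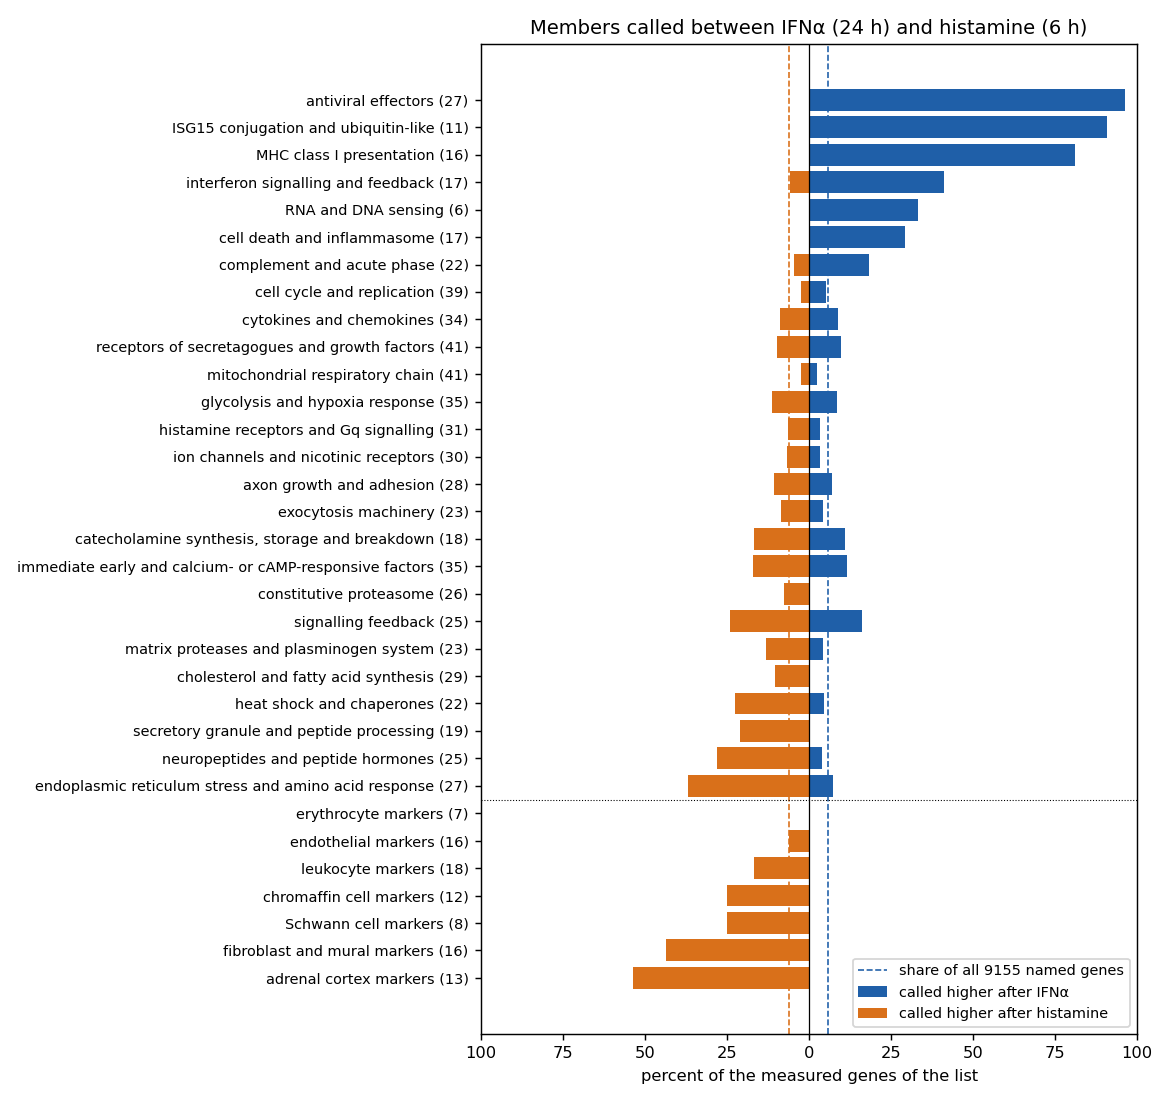
Share of the measured genes of each list that was called higher after IFNα (blue, to the right) or higher after histamine (orange, to the left), in percent, with the number of measured genes in brackets; dashed lines mark the shares among all 9155 named genes, 5.83% and 6.06%, and the dotted line parts pathway lists from cell type markers below. Antiviral effectors reach 26 of 27 on the IFNα side, and adrenal cortex markers reach 7 of 13 on the histamine side.

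On the histamine side the largest differences were neuropeptides. TAC1, the precursor of substance P, read 4.29, 4.06 and 4.12 after IFNα and 9.07, 8.88 and 9.10 after histamine. The IFNα arrays lay at the floor with untreated cells, at 4.19 to 4.33, and the difference was -4.86 (SE 0.0859), at least 29.0-fold (adjusted p = 7.12e-15). VIP, vasoactive intestinal peptide, a stimulus of secretion, read 4.60, 4.70 and 4.87 against 8.91, 8.86 and 8.94, at least 18.1-fold higher after histamine, with untreated cells at 4.81 to 4.94. GAL, the precursor of galanin, read 11.89, 11.82 and 11.84 against 13.28, 13.33 and 13.31 (2.74-fold), and NPPA, the precursor of atrial natriuretic peptide, was 3.31-fold higher after histamine. LOC407218, for which a RefSeq table gives the synonyms CALCB and CRSP1, names of peptides of the calcitonin family, was 5.82-fold higher after histamine (5.64, 5.56 and 5.83 against 8.25, 8.18 and 8.22).

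Of the 25 measured peptide genes 7 were called higher after histamine and 1 higher after IFNα, beside 6.06% and 5.83% of all named genes. The smaller calls higher after histamine were neurotensin (NTS, -0.91) and somatostatin (SST, -0.68), both named after their values were seen, and SCG2, the precursor of secretoneurin, at 13.28, 13.24 and 13.18 against 13.90, 13.87 and 13.83 (-0.63, near the ceiling). SCG2 missed the fold minimum after cyclic loess, at -0.53, and SST without histamine repeat 3, at -0.52. PENK, the enkephalin precursor, read 13.97 to 14.01 after IFNα and 14.05 to 14.08 after histamine, at the top of the scale, so its difference of -0.08 (-0.12 to -0.04) does not show that the gene was steady. ADM, the precursor of adrenomedullin, was the peptide gene called higher after IFNα. It read 11.98 to 12.38 after IFNα, repeat 3 the highest, against 11.45 to 11.48 after histamine (0.65, adjusted p = 0.0167), and without IFNα repeat 3 the difference was 0.52 and not called. Against untreated cells, 0 of the 25 peptide genes were called higher after IFNα.

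Of 19 measured processing enzymes and granule proteins of the peptide pathway, 4 were called higher after histamine and 0 higher after IFNα. Among all named genes these shares were 6.06% and 5.83%. An unadjusted p under 0.05 was found in 13 of the 19, and small p-values were common over all probe sets. PAM, which amidates the ends of peptides, read 10.97 to 11.01 after IFNα against 11.71 to 11.79 after histamine (1.70-fold). PCSK1, a prohormone convertase, was 1.60-fold higher after histamine, and PTPRN, a granule membrane protein, 1.78-fold. The granule matrix proteins CHGA and CHGB were not called, at 0.08 (0.01 to 0.16) and -0.03 (-0.08 to 0.02), both measured near the ceiling. In the machinery of exocytosis 3 of 23 genes were called (13.0%), near the 11.9% of all named genes. NSF, the ATPase that takes apart fusion complexes, and SYT4, a calcium sensor relative, were higher after histamine by 1.57-fold and 1.53-fold, whereas NAPB, a partner of NSF, was 1.73-fold higher after IFNα. In this list 0 genes were called higher after IFNα than in untreated cells, and 1 was called lower after histamine. SYT4 missed the fold minimum after cyclic loess (-0.54) and quantile normalization (-0.55).

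Catecholamine genes were divided. PNMT, which converts noradrenaline to adrenaline, read 8.55, 8.38 and 9.38 after IFNα and 10.60, 10.48 and 10.16 after histamine, with untreated cells at 8.06 to 8.22. All histamine arrays were above all IFNα arrays, 3.12-fold on average (adjusted p = 4.06e-05), and IFNα repeat 3 was the highest of its group; without it the difference was 3.86-fold. SLC18A2, the transporter that loads catecholamines into granules, read 11.36, 11.37 and 12.27 against 12.25, 12.25 and 12.29, so IFNα repeat 3 overlapped the histamine arrays. Its difference was -0.60 with that array (adjusted p = 0.0167) and -0.90 without it. Its call was lost without IFNα repeat 1 (-0.44) or 2 (-0.45) or histamine repeat 3 (-0.58), and after cyclic loess (-0.51). AKR1B1, an aldose reductase that reduces catecholamine aldehydes, was 1.74-fold higher after histamine. GCHFR, the feedback regulator of biopterin synthesis, and SULT1A1, a sulfotransferase of phenols, were higher after IFNα by 1.71-fold and 1.54-fold. Against untreated cells, 0 of the 18 measured catecholamine genes were called higher after IFNα and 1 was called lower after histamine. SULT1A1 missed the fold minimum without IFNα repeat 1 (0.555) or histamine repeat 1 (0.58). TH, the rate-limiting enzyme, read 13.36 to 13.42 after IFNα and 13.73 to 13.76 after histamine, a difference of -0.35 (-0.42 to -0.29) close to the ceiling and under the fold minimum. DBH, the enzyme that makes noradrenaline, was scattered at 11.04, 10.80 and 11.40 against 10.94, 10.91 and 10.31, and the groups overlapped (0.36, -0.12 to 0.84).

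The histamine receptor HRH1 was not called. It read 8.71, 8.62 and 8.36 after IFNα and 9.08, 8.91 and 9.07 after histamine, and untreated cells lay at 8.68 to 8.74. The difference was -0.46 (95% interval -0.63 to -0.28), without overlap and under the fold minimum. Of 31 measured genes of histamine receptors and Gq signalling 3 were called, near the 11.9% of all named genes; 19 had an unadjusted p under 0.05 and in 21 the agents' arrays did not overlap. RCAN1, an inhibitor of calcineurin whose own transcription follows calcium, was 1.90-fold higher after histamine. Its relative RCAN2 was at least 2.00-fold higher after histamine, with IFNα arrays at 4.62 to 4.74 and untreated cells at 5.49 to 5.57 near the histamine arrays. CAMK2G, a calcium-dependent kinase, was 1.59-fold higher after IFNα and differed by only 0.30 when its probe sets were averaged. Against untreated cells, 0 genes of this list were called higher after IFNα and 1 was called lower after histamine.

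Immediate early and cAMP-responsive factors were called in both directions, 6 of 35 higher after histamine and 4 higher after IFNα. In all 28.6% were called, beside 11.9% of all named genes. CREM, a cAMP-responsive transcription factor, read 7.97, 8.01 and 8.40 after IFNα and 10.93, 10.80 and 10.81 after histamine (6.59-fold, adjusted p = 1.61e-11). NR4A1, a nuclear receptor induced by depolarisation, read 6.18, 6.13 and 6.72 against 8.34, 8.42 and 8.55 (4.27-fold). EGR1 and FOS, both early factors of growth and calcium signals, were 3.40-fold and 3.07-fold higher after histamine. In CREM, NR4A1, EGR1 and FOS the IFNα arrays never reached the histamine arrays, and IFNα repeat 3 was the highest IFNα array. MYC, a growth regulator, was 2.67-fold lower after IFNα, at 8.08, 8.09 and 7.52, while histamine at 9.25 to 9.37 and untreated cells at 9.29 to 9.39 overlapped. TRIB1, a pseudokinase that was named after its value was seen, was 1.93-fold higher after histamine.

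The 4 factors higher after IFNα in this list were, named after their values were seen, ID1 (1.54) and ID2 (1.00), which block helix-loop-helix factors, BTG1 (0.71), an inhibitor of growth, and KLF4 (0.66), a zinc finger factor. ID1 lay above untreated cells after IFNα by 0.87 and below them after histamine by -0.66. It was the 1 gene of the 35 called higher after IFNα than in untreated cells, while 4 were called lower after histamine. NR4A2, a relative of NR4A1, missed the fold minimum at -0.57 (-0.76 to -0.39); it passed it after median centring, at -0.60, and without IFNα repeat 2 or histamine repeat 2, at -0.62 and -0.62. ATF3, a stress-induced factor, overlapped between the agents, at 9.54, 9.61 and 9.27 after IFNα and 9.56, 9.59 and 9.59 after histamine, and both groups lay under untreated cells at 10.29 to 10.33.

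Regulators that end a signal had 6 genes called higher after histamine and 4 higher after IFNα, of 25 measured, TRIB1 being counted here too. The share called was 40.0%, beside 11.9% of all named genes. RASD1, a Ras-like protein induced by steroids and calcium, read 6.83, 6.61 and 7.20 after IFNα and 9.69, 9.63 and 9.66 after histamine (6.87-fold). SPRY2, an inhibitor of receptor tyrosine kinase signalling, was 3.10-fold higher after histamine, and DUSP1, a phosphatase that switches off MAP kinases, 1.98-fold. GEM, a small GTPase that restrains calcium channels, was 1.76-fold higher, and ERRFI1, an inhibitor of the EGF receptor, 1.53-fold; both were named after their values were seen, and ERRFI1 lost its call without IFNα repeat 1 or 2 or histamine repeat 1 or 3. ZFP36, which destabilises cytokine mRNA, was 2.02-fold higher after IFNα. SOCS2, an inhibitor of cytokine signalling, was 1.84-fold higher after IFNα, DUSP10, another MAP kinase phosphatase, at least 1.64-fold, and NFKBIA, the inhibitor of NF-κB, 1.51-fold, all named after their values were seen. NFKBIA lost its call without IFNα repeat 1 (0.54) or histamine repeat 3 (0.56). SOCS3, the feedback inhibitor of IL6-type signalling, stayed at the floor with all 6 arrays under 4.8.

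Receptors were called 4 of 41 each way, 19.5% in all beside 11.9% of all named genes. NTRK2, the receptor of the neurotrophin BDNF, read 6.59, 6.49 and 6.67 after IFNα and 9.50, 9.50 and 9.62 after histamine, a 7.76-fold difference (adjusted p = 2.59e-14) with untreated cells between at 7.89 to 7.92. TNFRSF12A, the receptor of the cytokine TWEAK, was 3.36-fold lower after IFNα, with untreated cells again between. IGF1R, the insulin-like growth factor receptor, was 2.04-fold higher after histamine and differed by -0.57 when its probe sets were averaged. OPRM1, the mu opioid receptor, named after its value was seen, read 5.61, 5.32 and 5.04 against 6.41, 6.09 and 5.37 (-0.63); its groups overlapped and its call was lost without IFNα repeat 2 or 3 and without histamine repeat 1 or 2, at -0.41 to -0.63. PTGER3, a prostaglandin E receptor, was 1.90-fold higher after IFNα. NR3C1, the glucocorticoid receptor, OSMR, the oncostatin M receptor, and MC4R, a melanocortin receptor, were higher after IFNα by 1.84-fold, 1.62-fold and 1.73-fold, all named after their values were seen. MC4R was scattered after IFNα at 8.56, 8.12 and 7.39, and lost its call without IFNα repeat 1 (0.52) and without histamine repeat 2 (0.72). Against untreated cells MC4R was called lower after both agents, at -0.75 after IFNα and -1.54 after histamine. Of the 41 receptors, 1 was called higher after IFNα than in untreated cells and 2 were called lower after histamine.

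Ion channels had 3 of 30 genes called, a share below the 11.9% of all named genes. KCNE1, an accessory subunit of potassium channels, read 5.28, 5.29 and 5.28 after IFNα and 7.52, 7.54 and 7.71 after histamine (4.95-fold). KCNMA1, the large-conductance calcium-activated potassium channel, was 1.83-fold lower after IFNα, and GRIA3, a glutamate receptor subunit, 1.77-fold higher. Beside untreated cells, 0 of the 30 channel genes were called higher after IFNα and 1 was called lower after histamine. Growth-associated genes of the axon were called in 5 of 28 (17.9%). GAP43, a growth cone protein, read 7.40, 7.28 and 7.45 after IFNα against 8.94, 9.19 and 9.02 after histamine (3.19-fold), and CNTN1, an axonal adhesion molecule, was 3.31-fold lower after IFNα. For both, histamine lay near untreated cells (0.34 and -0.42) and IFNα lay below them (-1.34 and -2.15). MAP1B, a microtubule protein of growing axons, named after its value was seen, was 1.65-fold lower after IFNα. NEFL, the light neurofilament, went the other way: it was 1.98-fold higher after IFNα, at 10.63 to 10.71 with untreated cells at 10.69 to 10.73, and histamine lay below at 9.56, 9.70 and 9.80.

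Amino acid supply and the endoplasmic reticulum stress response held the highest share of histamine calls among the pathway lists, 10 of 27, with 2 higher after IFNα and a median difference of -0.30. In all 44.4% were called, beside 11.9% of all named genes. PSAT1, an enzyme of serine synthesis, read 9.01, 9.02 and 8.97 after IFNα and 11.10, 11.08 and 11.09 after histamine (4.26-fold). SLC7A5, a transporter of large neutral amino acids, read 7.21, 7.22 and 7.22 against 9.24, 9.30 and 9.26 (4.14-fold), with untreated cells between at 8.10 to 8.23. SLC3A2, its partner chain, was 1.78-fold higher after histamine, CHAC1, which degrades glutathione, 1.61-fold, and MTHFD2, a mitochondrial folate enzyme, 1.53-fold, all named after their values were seen; MTHFD2 missed the fold minimum without IFNα repeat 3 (-0.55). The members higher after IFNα were WARS1, the tryptophanyl-tRNA synthetase, itself an interferon-induced gene (2.71-fold), and SESN2, a sestrin that senses leucine (2.32-fold). Genes of the endoplasmic reticulum made up the rest of the calls higher after histamine. They were DNAJC3 (-0.82), EIF2AK3 (-0.70), HSP90B1 (-0.67), HYOU1 (-0.63) and SYVN1 (-0.63), all named after their values were seen. HSPA5, the main chaperone of the endoplasmic reticulum, was not called (-0.30).

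Heat shock and chaperone genes had 5 of 22 called higher after histamine and 1 higher after IFNα, with a median of -0.40. In all 27.3% were called, beside 11.9% of all named genes. HSPH1, a co-chaperone of HSP70, read 10.82, 10.73 and 10.50 after IFNα against 11.61, 11.51 and 11.58 after histamine (1.84-fold), and DNAJB1, which delivers clients to HSP70, was 1.77-fold higher. CHORDC1, a partner of HSP90, was 1.65-fold higher. HSPB8, a small heat shock protein, was 1.66-fold higher after IFNα, where it lay at the level of untreated cells (0.01), while histamine lay below them (-0.72). HSPH1 differed by -0.57 when its probe sets were averaged.

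Lipid synthesis genes were called at 10.3% and matrix protease genes at 17.4%, beside 11.9% of all named genes. Their median differences were -0.14 and -0.14, beside -0.03 for all named genes. Of 29 genes of cholesterol and fatty acid synthesis 3 were called higher after histamine and 0 higher after IFNα, with 16 at an unadjusted p under 0.05. CYP51A1, a sterol demethylase, and ACLY, which makes cytosolic acetyl-CoA, were both 1.73-fold higher after histamine, and FADS2, a fatty acid desaturase, 1.57-fold. Of 23 matrix protease genes 3 were called higher after histamine and 1 higher after IFNα. TNFAIP6, a hyaluronan-binding protein, read 6.64, 6.40 and 6.35 after IFNα against 8.17, 8.14 and 8.30 after histamine (3.34-fold), and untreated cells were higher still at 8.48 to 8.65. MMP9, a gelatinase, was 2.28-fold and TIMP3, an inhibitor of metalloproteinases, 1.88-fold higher after histamine. ADAMTS1, a matrix protease, was 1.55-fold higher after IFNα and missed the fold minimum without histamine repeat 2 (0.53).

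Cell cycle and respiratory chain genes were called at shares below those of all named genes, 3 of 39 and 2 of 41. CDKN1A, the inhibitor p21, read 11.38, 11.42 and 11.29 after IFNα against 10.46, 10.61 and 10.74 after histamine (1.69-fold). CCND3, a cyclin, was 1.52-fold higher after IFNα and missed the fold minimum without IFNα repeat 3 (0.55) or histamine repeat 1 (0.56), and PLK3, a stress-responsive kinase, was 1.78-fold lower. In the respiratory chain NDUFB10, of complex I, was 1.71-fold higher after IFNα, and UQCRB, of complex III, 1.71-fold lower. Against untreated cells, 0 of the 41 respiratory chain genes were called after either agent.

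Other large differences on the histamine side lay outside the lists. DCLK1, a microtubule-binding kinase of neurons, read 8.78, 8.83 and 8.73 after IFNα and 11.34, 11.26 and 11.27 after histamine (5.70-fold). SMYD2, a lysine methyltransferase, was 5.68-fold higher after histamine. RPS6KA3, a kinase downstream of ERK, was 5.13-fold higher, and MEST, an imprinted gene of the hydrolase family, 4.47-fold. In these 4 genes the IFNα mean differed from the untreated mean by -0.30, -0.14, -0.29 and 0.11 and was not called.

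Marker genes of other adrenal cells moved with the comparison. Of 13 adrenal cortex markers 7 were called higher after histamine (53.8%, beside 6.06% of all named genes), with a median difference of -0.61. The mean of the 13 was 6.50 to 6.51 on the IFNα arrays, 7.33 to 7.38 on the histamine arrays and 6.96 to 6.97 on untreated arrays. CYP11A1, the enzyme that starts steroid synthesis, read 6.10, 6.15 and 5.65 after IFNα against 8.07, 7.96 and 7.85 after histamine (3.98-fold). HSD3B1 and CYP21A2, later enzymes of the pathway, were 3.11-fold and 2.93-fold higher after histamine. STAR, which moves cholesterol into mitochondria, was at least 2.83-fold higher. CYP17A1 (-1.31), SCARB1, a lipoprotein receptor (-0.99), and NR0B1, a nuclear receptor (-0.61), complete the 7 and were named after their values were seen; NR0B1 lost its call without any 1 of the untreated arrays or of the 6 compared arrays other than IFNα repeat 3. CYP11B1 stayed near the floor at 5.22 and 5.21. In bulk RNA, fewer cells of a type and less RNA per cell cannot be told apart.

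Of 16 fibroblast and mural markers 7 were called higher after histamine (43.8%, beside 6.06% of all named genes), with a median of -0.46. The mean of the 16 was 8.02 to 8.12 after IFNα, 8.57 to 8.64 after histamine and 8.27 to 8.31 in untreated cells. FN1, fibronectin, read 6.67 to 6.89 after IFNα against 7.85 to 8.04 after histamine (2.29-fold), and differed by -0.48 when its probe sets were averaged. ACTA2, smooth muscle actin, was 2.29-fold higher after histamine, POSTN, periostin, 1.96-fold, and COL1A2, a collagen chain, 1.92-fold. Other marker lists moved less. Leukocyte markers had 3 of 18 called higher after histamine, S100A12 (at least 6.11-fold), CORO1A (-1.11) and S100A8 (-0.67), while the defining marker PTPRC read 4.66 and 4.72. Of 8 Schwann cell markers S100B (-0.61; -0.55 after cyclic loess and -0.58 after quantile normalization, under the fold minimum) and GAP43 were called, with SOX10 at 5.20 and 5.14. Of 16 endothelial markers CLDN5 was called (-0.60, with the IFNα mean under the floor, at 4.77 to 5.31 after IFNα and 5.46 to 5.79 after histamine, dim but without overlap), and its call was lost without IFNα repeat 1 (-0.56) or 2 (-0.48) or histamine repeat 3 (-0.50). Of 7 erythrocyte markers 0 were called by limma, 2 at an unadjusted p under 0.05. Chromaffin markers, at a mean of 12.1 to 12.4 after IFNα and 12.4 to 12.5 after histamine, were bright in every group, with 3 of 12 called, PNMT, SCG2 and SLC18A2. The 7 cortex, 7 fibroblast and 3 leukocyte markers that were called were all higher after histamine than after IFNα, as were the called lipid genes and most called matrix genes, and the part of other cell types in those results was not tested.

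Set against untreated cells, the 2 agents placed their genes differently. IFNα alone had 362 of 9155 named genes called (3.95%), 262 higher (2.86%) and 100 lower (1.09%). Histamine alone had 639 (6.98%), 345 higher (3.77%) and 294 lower (3.21%). Over all probe sets IFNα had 807 called (3.36%), 524 higher (2.18%) and 283 lower (1.18%), and histamine 1369 (5.70%), 717 higher (2.99%) and 652 lower (2.71%). Both contrasts share the 3 untreated arrays. Of the 1089 genes called between the agents, 244 were also called against untreated cells after IFNα only (22.4%), 405 after histamine only (37.2%), 44 after both (4.04%) and 396 after neither (36.4%). In all 396 of the last class the untreated mean lay between the agents and the largest difference was 1.12, which the way the class is chosen largely fixes. The largest of the 396, FUT10, a fucosyltransferase named after its value was seen, read 7.23, 7.32 and 7.34 after IFNα, 6.12, 6.19 and 6.23 after histamine and 6.74 to 6.78 in untreated cells, a 2.17-fold difference between agents of which 0.53 lay above and -0.58 below untreated cells. In the class called after histamine only, 253 of 405 genes were higher after histamine, and in the class called after IFNα only, 192 of 244 were higher after IFNα.

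Called against untreated cells in opposite directions were 40 genes, 29 of them higher after IFNα and lower after histamine and 11 the reverse. GBP1 was 3.29 above untreated cells after IFNα and at -1.38 after histamine, with untreated arrays at 7.93, 7.90 and 7.72, histamine arrays at 6.51, 6.41 and 6.49 and IFNα arrays at 11.18, 11.17 and 11.07, so the 3 groups did not overlap. UBA7 showed the same order at 3.98 and -0.96, and NUPR1, a stress-induced chromatin protein, rose by 0.92 after IFNα and fell by 1.00 after histamine. NTRK2 had the reverse order at -1.32 and 1.63. S100A12, a calcium-binding protein, followed at -1.45, with its IFNα mean under the floor, and 1.16, SLC7A5 at -0.96 and 1.09, CYP11A1 at -1.06 and 0.93, and TNFRSF12A at -0.90 and 0.85. Several interferon genes belong to the first order. Across the 5 lists of interferon signalling, antiviral effectors, sensing, ISG15 tagging and MHC class I, 74 genes were measured, of which 8 were called lower after histamine than in untreated cells and 0 higher, and 52 lay below, beside 3.21% of all named genes called lower and 4453 of 9155 below. Untreated repeat 1 had the highest antiviral levels of its group (a mean over the 27 genes of 7.22, against 6.94 and 6.96). Without it 8 were again called lower, 49 lay below, and the median moved from -0.14 to -0.10.

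Called in the same direction by both agents were 22 genes, 8 higher and 14 lower, and 4 of them were also called between the agents. SLC6A15, an amino acid transporter of neurons, fell by 1.00 after IFNα and by 1.08 after histamine, from 8.47 to 8.65 in untreated cells to 7.32 to 7.71 and 7.38 to 7.51. STMN4, a microtubule-destabilising protein of neurons, fell by 1.22 and 0.95, and GRIK1, a kainate receptor subunit, by 0.76 and 1.00. MTURN, a regulator of neural progenitors, fell by 1.49 and 0.83 and OMG, a myelin glycoprotein, by 0.78 and 1.76, both differing also between agents. MANF, a secreted protein of the stressed endoplasmic reticulum, rose by 1.35 and 0.81, and SERTAD1, a regulator of cell cycle factors, by 1.15 and 0.82. BOLA-DRA, an MHC class II chain named after its value was seen, rose by 2.32 after IFNα and by 0.74 after histamine. With a single untreated group and no vehicle samples for either time, a difference of treated from untreated cells that the agents share cannot be told apart from one of handling or culture time.

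**Figure D4:**
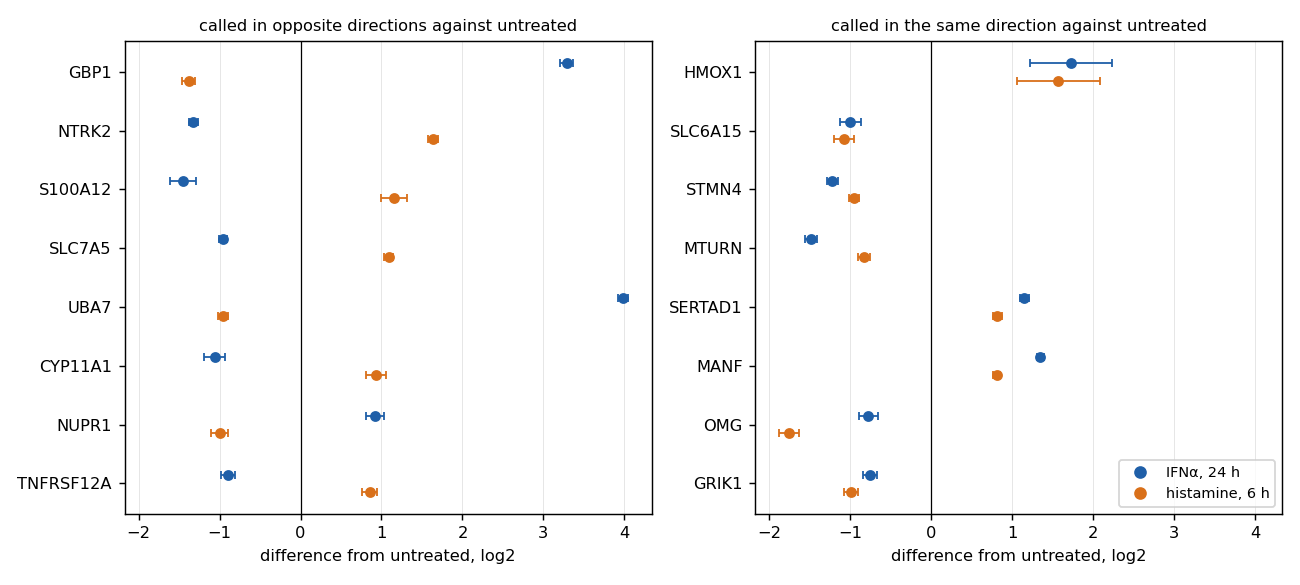
Difference from untreated cells on the log2 scale after IFNα (blue, 24 h) and histamine (orange, 6 h) for the 8 genes with the largest smaller change among those called in opposite directions (left) and in the same direction (right); bars are standard errors of the fit. GBP1 lies at 3.29 and -1.38 on the left, and on the right MANF lies at 1.35 and 0.81 while the error bars of HMOX1 are wide.

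One IFNα array stood apart in genes of hypoxia and glycolysis. The mean of the 35 measured genes of that list was 9.40 and 9.40 on IFNα repeats 1 and 2 and 10.11 on repeat 3, against 9.62 to 9.65 after histamine and 9.40 to 9.44 in untreated cells. Of the 106 probe sets with an SD over 0.5 among IFNα arrays, repeat 3 was the distant array in 95; histamine arrays had 101 probe sets with such an SD. STC1, the secreted regulator stanniocalcin, named after its value was seen, read 5.37, 5.18 and 8.14 after IFNα, 8.33, 8.27 and 7.76 after histamine and 4.89 to 5.22 in untreated cells. Its difference was -1.89 and not called (adjusted p = 0.0700) with all arrays, and -2.845 (7.19-fold, adjusted p = 0.00319) without repeat 3. VEGFA, the vascular growth factor, read 9.47, 9.49 and 11.76 against 10.73, 10.71 and 10.74, so repeat 3 was above and the other IFNα arrays below all histamine arrays. Its difference moved from -0.49 to -1.25 without repeat 3. PFKFB3, an activator of glycolysis, moved from -0.77 to -1.25. TPI1, a glycolytic enzyme, was at -0.63 with repeat 3 and 2.00-fold higher after histamine without it (adjusted p = 0.00614). STC1, VEGFA, PFKFB3 and TPI1 were named after their values were seen. They were not called with all arrays weighted equally and were called without repeat 3. With repeat 3 kept, all 4 were called with array weights, STC1, PFKFB3 and TPI1 with a replicate block or without IL6 repeat 1, and STC1 also without IL6 repeat 3 or with the 6 compared arrays alone.

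DDIT4, an inhibitor of mTOR induced by stress, was called higher after IFNα with repeat 3 (10.90, 10.94 and 11.72 against 10.09, 10.14 and 10.04, a difference of 1.10) and without it (0.83, adjusted p = 0.0199). P4HA2 and PLOD2, hydroxylases of collagen, were higher after histamine, with differences of -0.66 and -0.62, and of -0.92 and -0.84 without repeat 3. P4HA2 lost its call without IFNα repeat 1 (-0.57) or 2 (-0.49). PLOD2 sits at the threshold with an adjusted p of 0.0407, and its call was lost without any 1 of the other 5 compared arrays or any 1 of the 3 untreated arrays. HMOX1, the haem-degrading enzyme, read 9.68, 9.86 and 12.03 after IFNα, 10.34, 10.46 and 10.31 after histamine and 8.77 to 8.86 in untreated cells. Its difference between agents was 0.15 with repeat 3 and -0.60 without it, not called in either case. The spread used for these calls also came from the IL6 arrays. Their means over the list were 9.48 on repeat 1, 10.05 on repeat 2 and 10.38 on repeat 3. The whole list had 3 genes called higher after IFNα and 4 higher after histamine, and 1 and 8 without repeat 3; over all probe sets 2280 were called with it and 2306 without it. HK1, a hexokinase, HIF1A, a subunit of the hypoxia-inducible factor, and KDM3A, a histone demethylase, named after their values were seen, complete the 7 at -0.59, -0.60 and 0.60. Without repeat 3, HIF1A and KDM3A missed the fold minimum, at -0.47 and 0.39. HIF1A also missed it without histamine repeat 3 (-0.58), KDM3A without histamine repeat 1 (0.56), and HK1 without IFNα repeat 1 or 2 or histamine repeat 1 or 3 (-0.53 to -0.58).

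**Figure D5:**
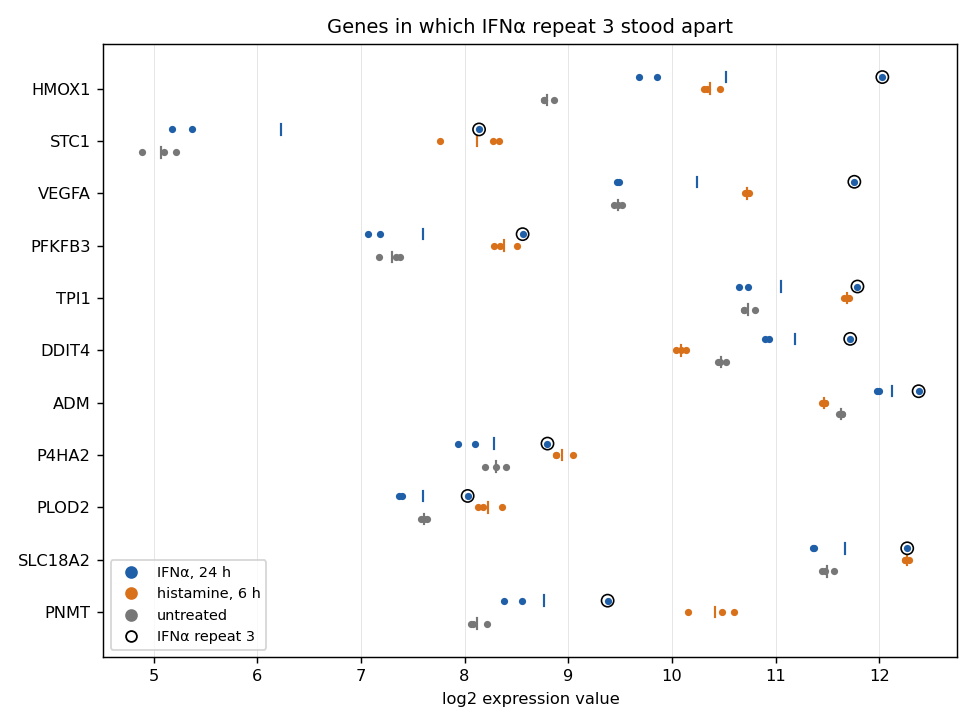
Array values of 11 genes in which IFNα repeat 3 (ringed) lay apart from the other IFNα arrays; the horizontal axis is the log2 expression value, points are arrays and ticks means of 3, in blue for IFNα (24 h), orange for histamine (6 h) and grey for untreated cells. In STC1 the ringed array at 8.14 lies among the histamine arrays and the other IFNα arrays at 5.18 and 5.37 lie near untreated cells.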

How the data were processed

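Per the labels' protocols, total RNA was biotin-labelled for bovine arrays of a single colour. The authors deposited log2 expression values of 24128 probe sets, which the submitters' processing notes credit to RMA without a version. RMA equalises arrays, so a shift shared by most genes would not show. The values were used as deposited, with no rescaling. Left out were 112 control probe sets. Names came from the platform annotation (1 symbol for 13292 probe sets, several for 86, none for 10638), checked against a RefSeq table. The annotation is old, and probe sets of a symbol can disagree: another was called oppositely in 3 of the 353 called genes that had several. No sequences or genome were used.

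limma 3.58.1 in R 4.3.3 fitted a mean per group over all 12 arrays, moderated with eBayes (trend on); p-values were adjusted after Benjamini and Hochberg across 24016 probe sets, and every adjusted p given is limma's. Intervals are 95%, and SE is that of the fit. The number of arrays, 3 a group, limits the precision. Lists were described by counts and medians, with no test. Tested on simulated data for this comparison (24016 probe sets), the fit called 47.8% of probe sets set to 1.5-fold, the fold minimum itself. By adjusted p alone 86.6% of these passed. Of those set to 2-fold 97.0% were called and of those set to 4-fold 100%, with 3 false calls. The draws were independent and normal, with 67, 67 and 66 probe sets changed, so the count of false calls need not hold for the real arrays.

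The genes named by rule were the 15 largest differences each way with separated arrays, the largest called members of a list (up to 4), a chosen set, and the 8 largest each called in opposite or in the same direction against untreated cells. Further genes are marked as named after their values were seen; all single genes of the closing observations that are not named elsewhere belong to these. The comparison, lists and rule were chosen with earlier results of these data known. Alternatives were other fold minimums, limma's treat, other eBayes settings, array weights, a filter on dim probe sets, 3 further normalizations, the 6 compared arrays alone, a replicate block, leaving out arrays, and other ways to represent a gene. Same-numbered arrays did not deviate together (correlations -0.01 to 0.06), so the numbers were not taken as pairs. Plots used Python 3.11.15 and matplotlib 3.10.9.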

Additional observations from a re-analysis of the deposited data

How the results depend on the processing

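The count of probe sets called between the agents followed the fold minimum: 7003 at 1.2-fold, 723 at 2-fold and 8915 with none, against 2280. Against untreated cells these were 2928, 326 and 4017 for IFNα (807 at 1.5-fold) and 5723, 256 and 7581 for histamine (1369), and for list members 279, 89 and 360 (167). All other settings kept the count between agents within 1.5 times, from 1695 without the dimmer probe sets to 3155 with treat; leaving out an array gave 2274 to 2356. With the repeat number as a replicate block 2291, 827 and 1384 were called. Median centring, loess and quantile normalization gave a median difference over all probe sets of -0.04, -0.00012 and -0.01, against -0.01 as deposited. A change of sign under an alternative was counted only for named genes called in the main fit or in the alternative. These were CD40 (-0.65; 0.32 with the mean of its probe sets, 1.29 with the probe set of the largest statistic) and FGF1 (0.61; -0.0325 and -1.003), and HMOX1, at 0.15 with all arrays, was called at -0.60 without IFNα repeat 3 and IL6 repeats 2 and 3, in which hypoxia genes were raised. The causes were not tested. Averaging probe sets ended the calls of ADAMTS1, CAMK2G, COL12A1, CSF1, DUSP10, EED, ERRFI1, FN1, HSPH1, IGF1R, KCNMA1, MAP1B, MTURN, NR0B1, PSMD6, SLC25A34, VCL and BOLA-DQA2. Levels near the floor and ceiling limit the smallest and brightest genes.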

Other observations

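Some gene families outside the lists were gathered after the values were seen and are described by counts alone, with no test; of all named genes 5.83% were called higher after IFNα and 6.06% higher after histamine. Of 25 tripartite motif genes, many of them regulators of innate immunity, 7 were called higher after IFNα and 0 higher after histamine, with a median difference of 0.21; TRIM34 read 9.69, 9.74 and 9.49 after IFNα against 6.18, 6.17 and 6.17 after histamine. Of 12 MHC class II genes 3 were called higher after IFNα, BOLA-DMB (2.38), which loads peptides, and the chains BOLA-DRA (1.58) and BOLA-DQA2 (0.60). BOLA-DQA2 missed the fold minimum without IFNα repeat 3 (0.52), with array weights (0.56), and after median centring or quantile normalization (0.58 each). It differed by only 0.20 when its probe sets were averaged. Of 7 poly-ADP-ribose polymerases, PARP14 (4.03), PARP12 (3.18) and PARP9 (3.78) were higher after IFNα and PARP8 (-0.76) lower. SLC25A28, a mitochondrial iron carrier, and SLC38A5, a glutamine transporter, were higher after IFNα by 2.04 and 1.53.

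On the histamine side, 4 of 16 cytoplasmic aminoacyl-tRNA synthetases were called higher, with a median of -0.28 over the 16. The 1 called higher after IFNα was WARS1 (1.44). GARS1, the glycyl-tRNA synthetase, read 10.72, 10.76 and 10.81 after IFNα, 11.89, 11.89 and 11.90 after histamine and 10.86 to 10.94 in untreated cells, and MARS1, the methionyl-tRNA synthetase, differed by -1.12. SLC1A5, another glutamine transporter, was lower after IFNα by 1.74 as a difference of means (7.21, 7.24 and 8.07 against 9.17, 9.23 and 9.33). Solute carriers as a whole had 18 of 179 called higher after histamine and 5 higher after IFNα. Of 23 collagens 7 were called, all higher after histamine, among them COL4A1 (-1.42), a basement membrane chain, at 7.34, 7.22 and 7.28 after IFNα, 8.69, 8.60 and 8.82 after histamine and 7.85 to 7.97 in untreated cells. COL15A1 (-1.42) and COL12A1 (-1.27) followed. Of 20 actin and contractile genes 5 were called, all higher after histamine, with CNN1, calponin, at 6.94, 6.63 and 7.02 against 8.48, 8.54 and 8.46 (3.10-fold), TPM2, tropomyosin, at -1.22 and VCL, vinculin, at -1.03. Among 64 ribosomal protein genes RPL4 was the 1 called, at -0.71, with histamine (13.34 to 13.38) at the level of untreated cells (13.34 to 13.39) and IFNα below both (12.60 to 12.69).

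Symbols with discordant probe sets would merit a check of the annotation. EED is given for 23 probe sets, whose differences ran from -1.48 to 1.41 with 2 called in each direction. FGF1 is given for 12, from -1.003 to 0.61, and the 2 of CD40 read -0.65 and 1.29. Among probe sets with no single symbol, 875 were called between the agents, up to 5.64 higher after IFNα and -3.54 lower; they remain unnamed here.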
